A study of Homo sapiens with 6 samples.

Results

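Prostaglandins are lipid mediators of inflammation, pain, fever and tumour growth, and the 10 genes described here encode enzymes that make or break them down and a carrier that takes them up. Cyclooxygenases (PTGS1 and PTGS2) turn arachidonic acid into prostaglandin H, terminal synthases turn that into prostaglandin E (PTGES, PTGES2 and PTGES3), prostacyclin (PTGIS) or thromboxane (TBXAS1), and the signal ends once the carrier SLCO2A1 brings prostaglandins into the cell and HPGD and PTGR1 inactivate them. PTGS1 is in general described as the constitutive cyclooxygenase and PTGS2 as the inducible one, though this differs between tissues. The pairing of PTGS2 with PTGES is known as a major source of prostaglandin E in lung carcinomas. The 10 genes were selected by symbol, out of 58676 listed genes, and the choice was made with their levels, their A549 Rec to A549 MOCK differences and their replicate 3 values in these same libraries known. Those values are therefore given as a description, and nothing is tested for the genes as a list.

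A549, a long-established line from a human lung adenocarcinoma, does not normally express recoverin, a calcium-binding protein of the retina. RNA was sequenced from 3 libraries of A549 Rec, in which a myc-tagged human recoverin cDNA was introduced with a puromycin-resistance vector, and from 3 libraries of A549 MOCK, which carries the empty vector. Both were grown in 2D to confluence, for 6 days per the labels, and the sources used here do not say whether the lines are single clones. Replicates are numbered 1 to 3 in each group by the sample descriptions, while the titles of the replicate 3 samples carry no number. Nothing states that the replicates came from separate cultures, so p-values measure only the spread between these libraries, which may be technical.

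The deposited values are TPM, a length-corrected share of each library's reads, with mitochondrial transcripts included. The reads recovered from them ranged from 15183490 to 18572167 per library. RCVRN, which encodes recoverin, had 0 reads in the 3 A549 MOCK libraries and 322, 338 and 339 TPM in the A549 Rec libraries (replicates 1 to 3). The replicate 3 libraries stood apart: mitochondrially encoded genes took 34.5% of all TPM in A549 MOCK replicate 3 and 26.9% in A549 Rec replicate 3, against 13.3% to 17.3% in the other 4. Of the epithelial markers, KRT8, KRT18 and CDH1 made up nearly all of a summed TPM of 4193 to 6343, while EPCAM reached 2.98 and KRT19 stayed under 1. Alveolar type II markers summed to 2.36 to 4.58 TPM. NAPSA ranged from 2.07 to 4.38 TPM, the other 6 of 7 were under 1 TPM in every library, and SFTPA1 was at 0. Summed TPM was 5.26 to 8.58 for macrophage markers (CD163 at 0), 1.98 to 3.85 for platelet and mast cell markers (PF4, GP9, TPSAB1 and CPA3 at 0), 3.19 to 5.76 for fibroblast markers (COL1A2 at 0) and 0.567 to 1.11 for endothelial markers. Of the 34 marker genes 8 passed the filter used for testing. Limma called 0 of these 8 between the groups, adjusted or unadjusted (2.06% of all genes passed unadjusted). With voom weights and the replicate number as a block, KRT8 and KRT18 passed at an unadjusted p under 0.05, against 4.49% of all genes. After adjustment 0 markers passed. In bulk RNA of this kind, fewer cells expressing a gene and less RNA per cell cannot be told apart.

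The promoters of PTGS2 and PTGES are printed because PTGS2 had the widest range over the libraries and PTGES the highest mean TPM of the 10 genes. Each sequence holds the 250 bases before the RefSeq transcript start on GRCh38.p14, read 5′ to 3′ on the minus strand, at chr1:186680424-186680673 for PTGS2 and chr9:129753043-129753292 for PTGES. Capitals mark matches, on either strand, to the TATA box (TATAAA), to the half-site of the cyclic AMP response element (TGACG) and to the GC box (GGGCGG).
PTGS2: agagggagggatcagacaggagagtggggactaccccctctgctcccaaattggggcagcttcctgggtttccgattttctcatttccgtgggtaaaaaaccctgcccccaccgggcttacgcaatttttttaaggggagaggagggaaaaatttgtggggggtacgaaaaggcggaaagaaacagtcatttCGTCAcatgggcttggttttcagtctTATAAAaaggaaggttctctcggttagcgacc
PTGES: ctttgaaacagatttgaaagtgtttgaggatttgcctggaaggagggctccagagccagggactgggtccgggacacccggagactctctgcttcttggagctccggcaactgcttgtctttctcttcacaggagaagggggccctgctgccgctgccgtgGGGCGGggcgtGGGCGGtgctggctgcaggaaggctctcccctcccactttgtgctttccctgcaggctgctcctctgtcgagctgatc
The PTGS2 window held the half-site as CGTCA at 58 to 54 bases and TATAAA at 32 to 27 bases before the start, and no GC box. In the PTGES window GGGCGG occurred 89 to 84 and 78 to 73 bases before the start, with neither of the other motifs. Of all 35116 RefSeq promoter windows of this length, 10.7% held TATAAA, 21.2% held TGACG and 42.6% held GGGCGG. RefSeq gave 12 windows for 8 of the 10 genes, of which 3 held TATAAA, 3 held TGACG and 8 held GGGCGG. These matches are letters in a window and say nothing of binding.

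PTGES, PTGES3, PTGS2 and PTGR1 were expressed at high levels in A549, PTGES2 and HPGD at intermediate levels, TBXAS1 and PTGS1 at a few TPM or less, while PTGIS had at most 4 reads in a library and SLCO2A1 had 0 reads in each. The mean TPM over the 6 libraries was 587 for PTGES, 392 for PTGES3, 306 for PTGS2, 286 for PTGR1, 101 for PTGES2, 84.4 for HPGD, 2.97 for TBXAS1 and 0.992 for PTGS1. By mean TPM, PTGES was at position 148 of the 58676 genes, PTGES3 at 247, PTGS2 at 354 and PTGR1 at 375. In this order most neighbours kept their places in all 6 libraries. The exceptions were PTGES3 above PTGS2 (4 libraries), PTGS2 above PTGR1 (2 libraries) and PTGIS above SLCO2A1 (3 libraries). These neighbours did not differ beyond the spread between libraries. PTGS2 lay below PTGES3 and PTGR1 in replicates 1 and 2 of both groups and above both genes in replicate 3. The place of PTGS2 by mean TPM thus rests on the replicate 3 libraries.

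**Figure D1:**
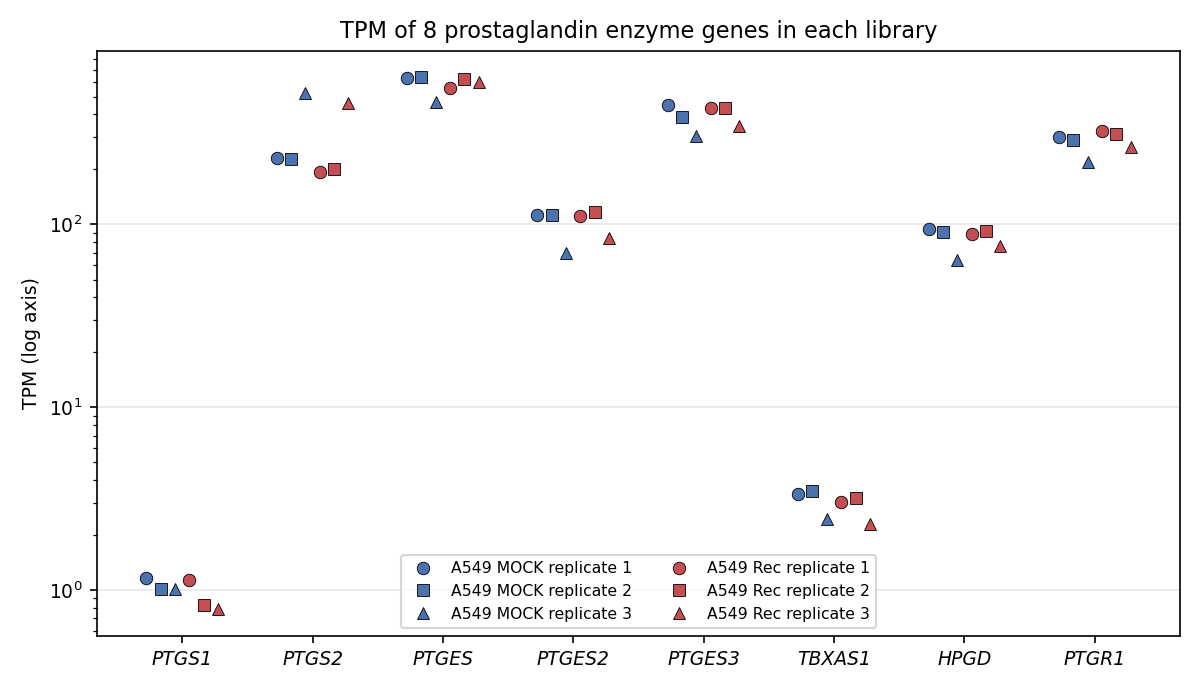
TPM on a log axis for the 8 genes that passed the filter, with 1 point per library, in blue for A549 MOCK and red for A549 Rec, as circles, squares and triangles for replicates 1, 2 and 3. PTGES, PTGES3, PTGS2 and PTGR1 lie above 190 TPM in each library, and the triangles are the highest points for PTGS2 (521 and 461 TPM) and the lowest for PTGES2, PTGES3, TBXAS1, HPGD and PTGR1.

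The order of the upper genes depends on the length by which reads were divided. The length behind the deposited TPM was 6200 bases for TBXAS1, 3760 for PTGR1, 5529 for HPGD, 3039 for PTGES2 and 3399 for PTGES3, against 1923, 1599, 2619, 1598 and 1898 bases for their canonical transcripts. For PTGS2 the values were 5269 and 4510 bases, and for PTGES 1896 and 1751. With the canonical length, a choice made after the data were seen, PTGES3 (702), PTGR1 (671) and PTGES (636) came ahead of PTGS2 (357), on the scale of TPM multiplied by the ratio of the lengths. PTGES2 (193) and HPGD (178) kept their places, and 4 genes took another one. Several neighbours on this scale did not keep their order in all 6 libraries. PTGES3 lay above PTGR1 in 5 libraries, PTGR1 above PTGES in 4, PTGES above PTGS2 in 5 and PTGES2 above HPGD in 4.

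**Figure D2:**
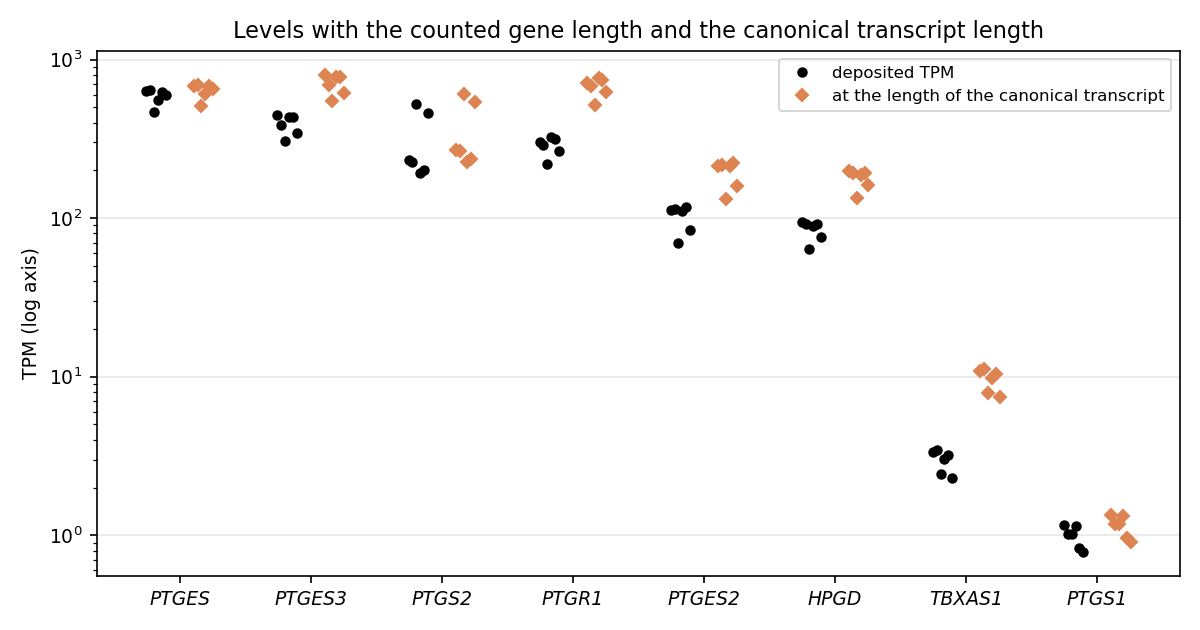
Level of each of the 8 genes in each of the 6 libraries on a log axis, as deposited TPM (black circles) and as TPM scaled to the length of the canonical transcript (orange diamonds). The mean of TBXAS1 moves from 2.97 to 9.57 and that of PTGR1 from 286 to 671, while PTGES moves only from 587 to 636.

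Of the cyclooxygenases, PTGS2 (chr1:186671791-186680427, minus strand, GRCh38) far exceeded PTGS1 (chr9:122370530-122395703, plus strand). PTGS1 reached 1.17, 1.02 and 1.02 TPM in the A549 MOCK libraries (replicates 1 to 3) and 1.14, 0.827 and 0.787 TPM in the A549 Rec libraries, from 24 to 34 reads per library. The groups overlapped. PTGS2, the inducible enzyme and the target of coxibs, reached 231, 227 and 521 TPM in the A549 MOCK libraries (replicates 1 to 3) and 193, 201 and 461 TPM in the A549 Rec libraries, from 5085 to 15416 reads. Both replicate 3 libraries were high, and within each number the A549 Rec library was the lower one. The ratio of PTGS2 to PTGS1 TPM had a median of 233 over the 6 libraries and ranged from 169 to 586.

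For PTGS1 the log2 difference of A549 Rec minus A549 MOCK, on the log2(TPM + 1) scale used throughout, was -0.11 (SE 0.21, 95% interval -0.61 to 0.39), and it was -0.19 without A549 Rec replicate 1 and -0.06 without A549 Rec replicate 3. For PTGS2 it was -0.20 (SE 0.44, 95% interval -1.24 to 0.83, n = 3 libraries per group, limma, unadjusted p = 0.657, adjusted p = 0.9997 over 17408 genes). Its same-numbered pairs gave -0.26, -0.17 and -0.18, all lower in A549 Rec. With same-numbered libraries as blocks (the replicate block), the SE was 0.07 and limma gave an unadjusted p of 0.0368 and an adjusted p of 0.998. With voom weights, the recovered reads and the block, limma gave an unadjusted p of 0.000997 and an adjusted p of 0.532. The unpaired difference turned to 0.19 without A549 MOCK replicate 3 and to 0.01 without A549 Rec replicate 1, and it was -0.61 without A549 Rec replicate 3. PTGS2 was thus not called by any of these fits, and the consistent sign within pairs is one of the values by which the genes were chosen.

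The 3 prostaglandin E synthases differ in place and partner. PTGES is the microsomal, inducible enzyme usually coupled to PTGS2, PTGES2 is a membrane-associated form, and PTGES3 is a cytosolic form better known as p23, a co-chaperone of HSP90. PTGES (chr9:129738331-129753047, minus strand) reached 633, 638 and 468 TPM in the A549 MOCK libraries (replicates 1 to 3) and 558, 628 and 599 TPM in the A549 Rec libraries. The lowest library was A549 MOCK replicate 3 and the groups overlapped. PTGES2 (chr9:128120693-128128462, minus strand) reached 112, 113 and 69.4 TPM in the A549 MOCK libraries (replicates 1 to 3) and 111, 117 and 84.1 TPM in the A549 Rec libraries. PTGES3 (chr12:56663341-56688408, minus strand) reached 449, 388 and 305 TPM in the A549 MOCK libraries (replicates 1 to 3) and 432, 436 and 344 TPM in the A549 Rec libraries. For both of these genes the replicate 3 libraries were the lowest of their group. The processed pseudogenes PTGES3P1 (582 reads in all) and PTGES3P3 (94 reads) share sequence with PTGES3 (42150 reads), so the split of reads between them is uncertain.

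Log2 differences of A549 Rec minus A549 MOCK were 0.05 for PTGES (SE 0.17, 95% interval -0.35 to 0.45), 0.10 for PTGES2 (SE 0.23, 95% interval -0.43 to 0.64) and 0.10 for PTGES3 (SE 0.19, 95% interval -0.35 to 0.54). Within pairs 1, 2 and 3, PTGES gave -0.18, -0.02 and 0.35, PTGES2 gave -0.01, 0.05 and 0.27, and PTGES3 gave -0.05, 0.17 and 0.17. On this scale none of the 3 had 1 sign in all pairs, whereas after rescaling without mitochondrially encoded genes the pairs were all above 0 for PTGES2 (0.05, 0.01 and 0.12) and for PTGES3 (0.01, 0.13 and 0.02). Without A549 MOCK replicate 3 the differences turned to -0.10 for PTGES, -0.13 for PTGES2 and -0.05 for PTGES3.

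Prostacyclin synthase and thromboxane synthase were scarce. PTGIS (chr20:49503874-49568146, minus strand), the endothelial enzyme that makes prostacyclin, had 1, 4 and 0 reads in the A549 MOCK libraries (replicates 1 to 3) and 2, 0 and 0 reads in those of A549 Rec. These counts are near the floor of 3 reads, and no fold is given. TBXAS1 (chr7:139777051-140020325, plus strand), known from platelets and macrophages, reached 3.36, 3.47 and 2.44 TPM in the A549 MOCK libraries (replicates 1 to 3) and 3.04, 3.20 and 2.30 TPM in the A549 Rec libraries, from 75 to 116 reads. Its replicate 3 libraries were the lowest, and each A549 Rec library lay below the A549 MOCK library of the same number. The pairs differed by -0.11, -0.09 and -0.06, with a log2 difference of -0.09 (SE 0.18, 95% interval -0.51 to 0.34) that turned to 0.02 without A549 Rec replicate 3. TBXAS1 shares 728 bases with HIPK2 on the opposite strand, which had 1083 to 1960 reads, and the strand setting of the counting is not given in the sources used here. Of the markers named above, CD14 (macrophage) had a mean of 6.11 TPM and PPBP (platelet) of 2.61 TPM, against 2.97 TPM for TBXAS1. CD163, PF4, GP9, TPSAB1 and CPA3 were at 0 in the same libraries. The part of such cells in the TBXAS1 level was not tested.

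Of the genes that end the signal, the carrier was not detected and both enzymes were well expressed. SLCO2A1 (chr3:133928145-134052184, minus strand) had 0 reads in each library, which at an exon length of 5127 bases allows at most 0.119 TPM in the library with the highest limit. HPGD (chr4:174490177-174523154, minus strand), which oxidises prostaglandin E at the first step of inactivation, reached 94.4, 91.2 and 63.6 TPM in the A549 MOCK libraries (replicates 1 to 3) and 88.9, 91.8 and 76.2 TPM in the A549 Rec libraries. For HPGD both replicate 3 libraries were the lowest. PTGR1 (chr9:111549722-111599893, minus strand), the reductase of the following step, reached 301, 289 and 219 TPM in the A549 MOCK libraries (replicates 1 to 3) and 325, 314 and 266 TPM in the A549 Rec libraries. Each A549 Rec library was above the A549 MOCK library of its number, while the groups overlapped through replicate 3.

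HPGD differed by 0.06 on the log2 scale (SE 0.18, 95% interval -0.35 to 0.47), with pairs at -0.09, 0.01 and 0.26, and by -0.12 without A549 MOCK replicate 3. PTGR1 differed by 0.17 (SE 0.17, 95% interval -0.22 to 0.57), with pairs at 0.11, 0.12 and 0.28, and by 0.03 without A549 MOCK replicate 3. It was 0.26 both without A549 MOCK replicate 1 and without A549 Rec replicate 3. With the replicate block the unadjusted p for PTGR1 was 0.0804, and with voom weights and the block it was 0.0161 with an adjusted p of 0.973.

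Across the 8 genes that passed the filter (at or above 1 TPM in 3 or more of the 6 libraries), limma called 0 at an adjusted p under 0.05, and voom also called 0. PTGS1, at 1.17 to 0.787 TPM, passed only just, and PTGIS and SLCO2A1 did not pass. PTGS1 reached 1 TPM in each A549 MOCK library but, of the A549 Rec libraries, only in replicate 1, so it passed mainly through A549 MOCK. Over all genes, 1 of 17408 was called, which is 0.00574%, and that gene was RCVRN. The study, which tested counts with DESeq2, reported many more genes at an adjusted p under 0.05 and a 2-fold change. The share over all genes given here is thus that of limma on TPM. At an unadjusted p under 0.05, limma called 0 of the 8 against 2.06% of all genes, and with the replicate block 1 of the 8 (PTGS2) against 4.11%. With voom weights and the block, 2 of the 8 (PTGS2 and PTGR1) passed unadjusted, against 4.49%. The median log2 difference was 0.05 over the 8 genes and 0.02 over all genes tested. A549 Rec was lower in all 3 pairs for 3 of the 8 (PTGS1, PTGS2 and TBXAS1), against 9.66% of all genes, and higher in all 3 for 1 (PTGR1), against 13.1%. After rescaling without mitochondrially encoded genes the balance was another one, with 2 of the 8 lower in all 3 pairs (PTGS2 and TBXAS1), against 15.4%, and 3 higher (PTGES2, PTGES3 and PTGR1), against 10.7%. As the pair values entered the choice of genes, nothing is read from these shares.

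**Figure D3:**
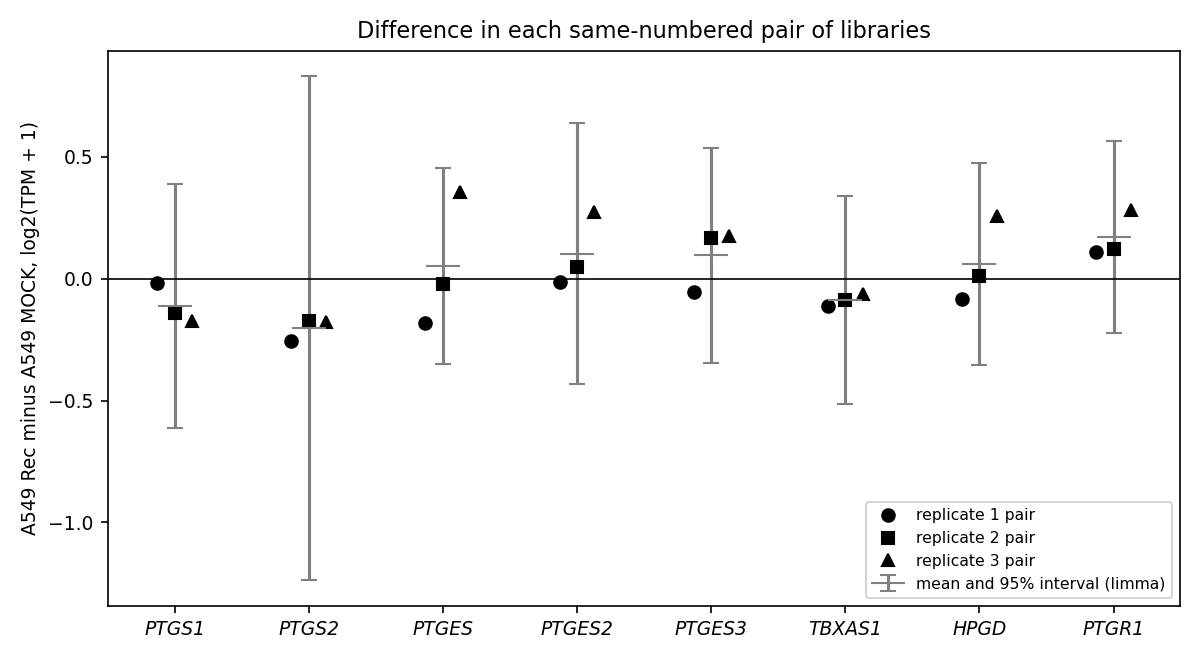
Difference of A549 Rec minus A549 MOCK in log2(TPM + 1) for the 8 genes tested, with 1 black symbol for each same-numbered pair and a gray line for the mean and 95% interval from limma without the block. The PTGS2 pairs lie between -0.26 and -0.17 and the PTGR1 pairs between 0.11 and 0.28, and all 8 intervals include 0.

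In the replicate 3 libraries PTGS2 was higher than in replicates 1 and 2 of both groups, while 5 of the other genes were lower by TPM. PTGS2 was higher in replicate 3 by 1.18 (A549 MOCK) and 1.22 (A549 Rec) on the log2(TPM + 1) scale, and the mean rise of 1.20 was at position 99 of 17408 genes. Both replicate 3 libraries lay below the other 4 for PTGES2, PTGES3, TBXAS1, HPGD and PTGR1, which is 5 of 8 genes against 44.0% of all genes. Both lay above the other 4 for PTGS2, which is 1 of 8 against 6.4%. Replicate 3 was lower by 0.69 (A549 MOCK) and 0.44 (A549 Rec) for PTGES2. For HPGD the values were -0.54 and -0.24, for PTGES3 -0.45 and -0.33, for PTGR1 -0.43 and -0.26, and for TBXAS1 -0.36 and -0.32. PTGES differed between the groups, at -0.44 (A549 MOCK) and 0.02 (A549 Rec), a difference that rests on 1 library each and was not tested. The median was -0.34 over the 8 genes and -0.19 over all genes, so most genes were lower in replicate 3 by TPM.

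The larger mitochondrial share of replicate 3 takes TPM from all other genes, so the values were also rescaled without the 37 mitochondrially encoded genes. On that scale PTGS2 stood at 267, 269 and 796 in the A549 MOCK libraries (replicates 1 to 3) and 234, 232 and 630 in the A549 Rec libraries. The rise in replicate 3 was then 1.57 and 1.43, at position 103 of 17999 genes. PTGES2 and HPGD were still below the other 4 libraries in both replicate 3 libraries, which is 2 of 8 genes against 14.4% of all genes, and PTGS2 was above them, which is 1 of 8 against 26.9%. The drop of PTGES2 was then 0.32 (A549 MOCK) and 0.23 (A549 Rec), and that of HPGD 0.16 and 0.03. PTGES3 was at -0.07 and -0.12, PTGR1 at -0.05 and -0.05, and PTGES at -0.06 and 0.23. The median over the 8 genes was -0.07 and that over all genes 0.08. The mitochondrial share moved with these differences, and its part in them beyond the rescaling was not tested.

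**Figure D4:**
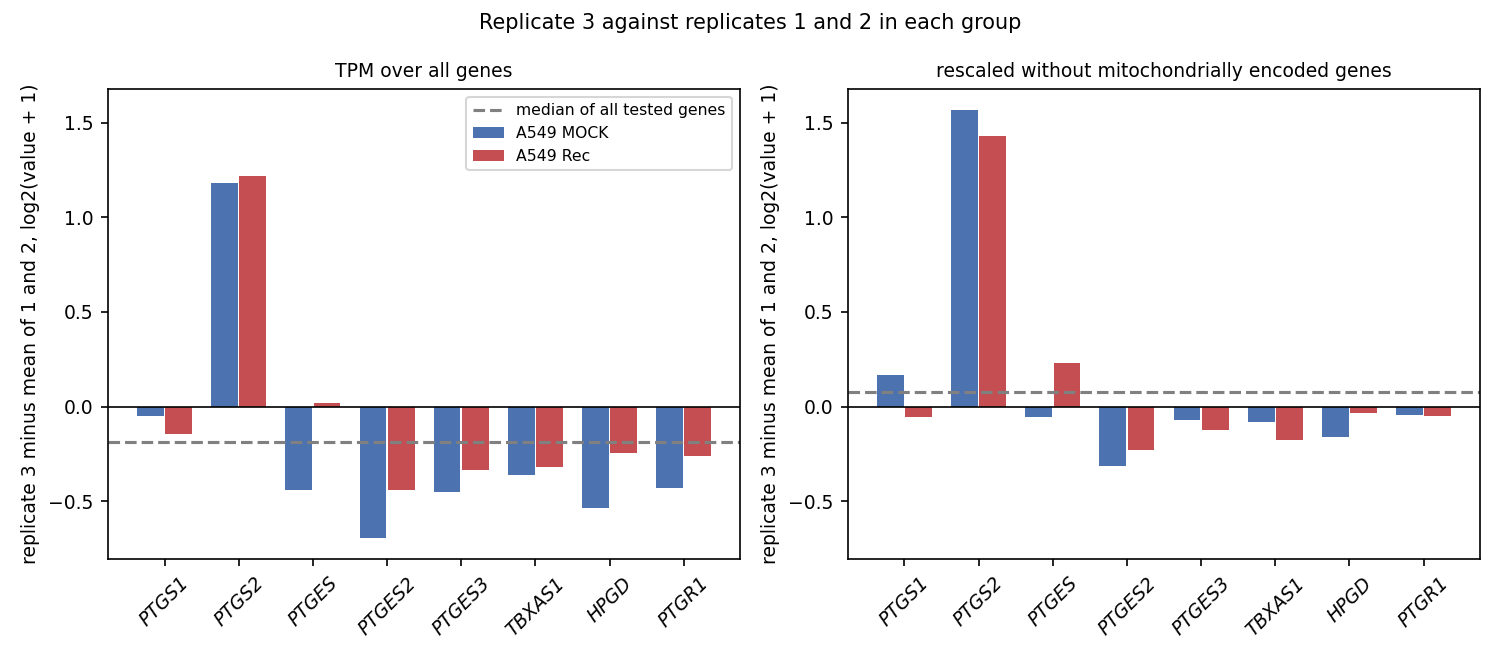
Difference of replicate 3 minus the mean of replicates 1 and 2, in log2(value + 1), for the 8 genes tested in A549 MOCK (blue bars) and A549 Rec (red bars), on deposited TPM (left) and after rescaling without mitochondrially encoded genes (right), with the median of all tested genes as a dashed line. PTGS2 lies between 1.18 and 1.57 in the 4 bars, and PTGES2 lies below 0 and below the dashed line in each.

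The ratio of PTGS2 to PTGES, PTGES3 and HPGD was higher in replicate 3 of both groups. The TPM ratio of PTGS2 to PTGES was 0.365, 0.356 and 1.11 in the A549 MOCK libraries (replicates 1 to 3) and 0.346, 0.320 and 0.769 in the A549 Rec libraries. The ratio of PTGS2 to HPGD was 2.45, 2.49 and 8.19 in the A549 MOCK libraries (replicates 1 to 3) and 2.17, 2.19 and 6.05 in the A549 Rec libraries. These ratios do not depend on the mitochondrial share, since both genes of a ratio are scaled alike. The ratio of PTGES to HPGD stayed between 6.28 and 7.86 in the 6 libraries, and that of PTGES2 to PTGES3 between 0.228 and 0.292. Even so, replicate 3 of each group had the highest value of the former and the lowest of the latter.

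**Figure D5:**
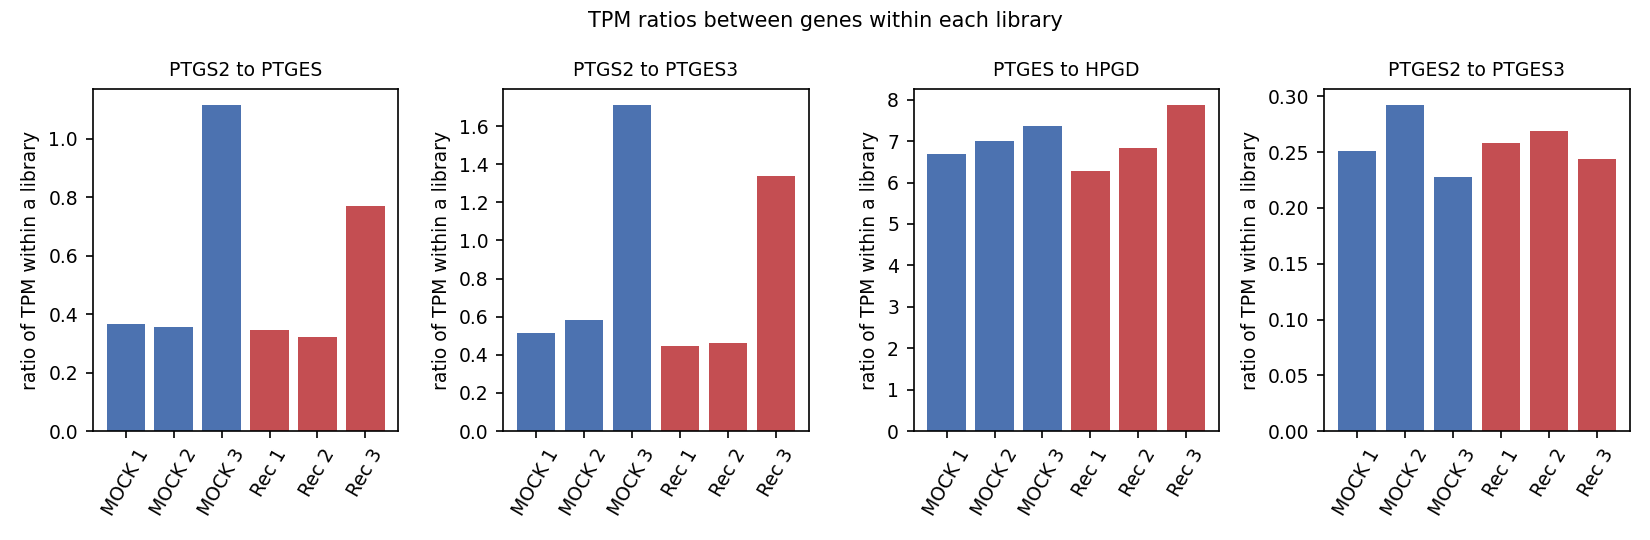
Ratio of TPM within each of the 6 libraries (bars, from 0) for PTGS2 to PTGES, PTGS2 to PTGES3, PTGES to HPGD and PTGES2 to PTGES3, with A549 MOCK in blue and A549 Rec in red. Both ratios with PTGS2 are highest in the replicate 3 libraries, at 1.11 and 0.769 for PTGES and 1.71 and 1.34 for PTGES3.

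PTGS2 had the largest range of the 10 genes over the 6 libraries, 1.43 on the log2(TPM + 1) scale. The genes whose log2(TPM + 1) was most alike to it, by Pearson's correlation over the 6 libraries, were CXCL8 at 0.9988, SLC16A5 at 0.9962 and the antisense gene AC010761.4 at 0.9938, and 4 genes in all were over 0.99. CXCL8, which encodes the chemokine interleukin 8, reached 128, 129 and 349 TPM in the A549 MOCK libraries (replicates 1 to 3) and 109, 117 and 297 TPM in the A549 Rec libraries. SLC16A5, a monocarboxylate transporter gene, lay between 54.3 and 58.9 TPM in replicates 1 and 2 and at 75.9 and 71.6 TPM in replicate 3 of A549 MOCK and A549 Rec. With 6 libraries, of which 2 stand apart, these correlations describe the replicate 3 libraries above all.

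Arachidonate is supplied by phospholipases A2, of which 5 of 13 listed genes passed the filter and 4 had 0 reads (PLA2G2A, PLA2G2D, PLA2G4F and PLA2G10). Limma called 0 of the 5, adjusted or unadjusted (2.06% of all genes passed unadjusted). PLA2G4A, the cytosolic enzyme that releases arachidonate, reached 92.7, 83.2 and 51.3 TPM in the A549 MOCK libraries (replicates 1 to 3) and 89.1, 87.4 and 72.6 TPM in the A549 Rec libraries. PLAAT3 ranged from 44.0 to 73.6 TPM and PLA2G6 from 6.66 to 9.33 TPM, and with voom weights and the block PLA2G6 was the 1 gene of the 5 that passed unadjusted (against 4.49% of all genes). The median log2 difference of the 5 genes was 0.04.

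Of 6 other prostanoid synthases, 3 passed the filter and 0 were called, adjusted or unadjusted (2.06% of all genes passed unadjusted). AKR1B1, an aldose reductase with prostaglandin F synthase activity, ranged from 2897 to 3753 TPM and so exceeded every gene described above. AKR1C3, another prostaglandin F synthase, ranged from 449 to 845 TPM and CBR1, a carbonyl reductase, from 107 to 152 TPM. With voom weights and the block, AKR1C3 was the 1 gene of the 3 that passed unadjusted (against 4.49% of all genes). The prostaglandin D synthases were not detectable at this depth, with 0 reads for HPGDS and 1 read in all for PTGDS. The median log2 difference of the 3 genes was 0.13.

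All 6 genes of further breakdown and export passed the filter, and 0 were called by limma, adjusted or unadjusted (2.06% of all genes passed unadjusted), while the replicate block gave 1 unadjusted call (against 4.11%). That gene was AKR1C1, with an unadjusted p of 0.0389 and an adjusted p of 0.998 in limma. With voom weights and the block, 3 of the 6 (AKR1C1, AKR1C2 and PTGR2) passed unadjusted, against 4.49%, and 0 passed after adjustment. AKR1C2 ranged from 898 to 2186 TPM, AKR1C1 from 92.9 to 193 TPM and ABCC4, a prostaglandin exporter, from 12.4 to 21.1 TPM. AKR1C1, AKR1C2 and AKR1C3 are paralogs that share sequence to differing degrees, so the split of reads between them is uncertain. Both replicate 3 libraries lay below the other 4 for 5 of the 6 genes (against 44.0% of all genes), and for 3 after the rescaling (against 14.4%). The median log2 difference was 0.15.

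Among 9 prostanoid receptors, 3 passed the filter, and PTGER3 and PTGDR had 0 reads. Of the 3, 0 were called, adjusted or unadjusted (2.06% of all genes passed unadjusted). PTGER2, a receptor for prostaglandin E, ranged from 1.66 to 5.67 TPM, PTGER4, another, from 1.02 to 1.80 TPM, and the thromboxane receptor TBXA2R from 0.191 to 1.74 TPM. The median log2 difference was 0.18, from 3 to 70 reads per gene and library. Of 8 genes of the lipoxygenase arm, which takes arachidonate to leukotrienes and related lipids, 3 passed, and ALOX15 and ALOX15B had 0 reads. Here too 0 of the 3 were called, adjusted or unadjusted, against the same 2.06%. LTA4H, the leukotriene A4 hydrolase, ranged from 42.7 to 62.1 TPM, ALOX12B from 6.43 to 9.68 TPM and ALOX12 from 4.33 to 5.45 TPM, with a median log2 difference of 0.04.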

How the data were processed

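RNA from 2D cultures of A549 Rec and A549 MOCK (3 libraries per group) was sequenced as paired reads on 2 instrument types, and the sources do not say which library ran on which. The submitters' processing notes name FastQC 0.11.7, Trimmomatic 0.38, HISAT2 2.1.0 and featureCounts 1.6.3. Those notes list mouse builds, whereas the study's methods name GRCh38, and 99.974% of 58207 shared genes overlap their GRCh38 positions in the GENCODE annotation. Annotation release, strand setting and treatment of multi-mapping reads are not given in the sources used here, and labels and methods describe the library kit differently. The authors deposited the values as TPM, scaled over all listed genes with mitochondrial ones included. The study tested counts with DESeq2, which does not suit TPM, so limma was used.

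Reads were recovered by finding, for each gene, a whole-number length at which the values of the 6 libraries became whole reads (tolerance 0.01). This worked for all 29900 genes above 0, and the fit is not a test of the recovery. On simulated data 99.2% of 5723 genes were recovered exactly. Counting intervals and the floor of 3 reads cover counting error only.

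Limma 3.58.1 in R 4.3.3 (lmFit, eBayes with trend) was fitted to log2(TPM + 1) of the 17408 genes at or above 1 TPM in 3 or more of the 6 libraries, without a block. This scale understates changes of low genes. Genes were called where the Benjamini-Hochberg adjusted p was under 0.05, and DEGs needed a 2-fold change as well. On simulated data with 200 genes changed 3-fold among 17408, 143 of them and 9 others were called. The simulated noise was independent between genes and libraries, with the spreads shuffled over genes and no shift shared by the replicate 3 libraries. These rates therefore do not carry over to the real libraries or to smaller changes. Same-numbered libraries were taken as pairs because their deviations from the group means correlated by 0.115, 0.164 and 0.342, all above 0.1. However, A549 Rec replicate 2 also correlated with A549 MOCK replicate 1 by 0.128, above the 0.115 of the replicate 1 pair. The pairs were thus taken from these same data, and the matching of replicates 1 and 2 is uncertain. The p-values with the replicate block rest on that matching.

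The genes, pathway lists and marker lists were chosen with earlier results of these data known. Of each pathway list, the 3 genes with the highest mean TPM are named, with genes at 0. The 3 genes most alike to the member of largest range are also named. PLAAT3 and PTGR3 were matched by gene ID. Alternatives were a pseudocount of 0.1, no filter, quantile normalization, rescaling without mitochondrially encoded genes, limma without trend, the replicate block, voom on recovered reads and leaving out each library. Canonical transcript lengths and rescaling with the block were added after seeing the data. Promoter sequences came from RefSeq on GRCh38.p14.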

Additional observations from a re-analysis of the deposited data

How the results depend on the processing

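None of the prostaglandin enzyme genes tested was called under any of the 15 alternatives (8 of the 10 tested in each, 9 without the filter on low TPM, SLCO2A1 in none), and the DEGs over all genes rose from 1 to 6 without the filter on low TPM, to 6 in limma without trend and to 3 with voom and the replicate block (4 without the 2-fold threshold), and ranged from 1 to 2 when 1 library was left out (2 without A549 Rec replicate 2). The replicate block left 1 DEG over all genes and changed no adjusted call of the 8 tested. Leaving out 1 library moved the log2 difference of A549 Rec minus A549 MOCK between -0.12 and 0.16 for HPGD, -0.10 and 0.13 for PTGES, -0.13 and 0.25 for PTGES2, -0.0547 and 0.22 for PTGES3, -0.61 and 0.19 for PTGS2, 0.03 and 0.26 for PTGR1, -0.19 and -0.06 for PTGS1, and -0.21 and 0.0189 for TBXAS1. PTGES also turned to -0.0137 under quantile normalization, and the replicate 3 difference of PTGS1 to 0.0549 after rescaling without mitochondrially encoded genes. The count of genes below the others in replicate 3 fell from 5 to 3 under quantile normalization and to 2 after rescaling. With canonical transcript lengths, chosen after seeing the data, 4 genes took another position. These new positions follow from the ratio of the lengths. Without 1 of the replicate 3 libraries, replicate 3 stays in 1 group only. The median log2 difference over all genes was then -0.06 (without A549 MOCK replicate 3) or 0.07 (without A549 Rec replicate 3), against 0.02 with all 6 libraries. The cause of the changes was otherwise not tested. The A549 Rec to A549 MOCK differences of PTGR1 and PTGS1 kept their sign under all 15 alternatives, which are refits of the same libraries and no independent support. PTGS1 rests on 24 to 34 reads per library, and its replicate 1 pair moved from -0.02 to 0.02 after rescaling. Depth limits PTGS1, PTGIS and SLCO2A1 most.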

Other observations

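PRXL2B, listed with the prostaglandin F synthases, did not pass the filter on low TPM and reached 1.65, 0.783 and 0.423 TPM in the A549 MOCK libraries (replicates 1 to 3) and 0.238, 0.102 and 2.87 TPM in the A549 Rec libraries, from 2 to 51 reads. ALOX5, the 5-lipoxygenase of leukotriene synthesis, reached 0, 0.109 and 0.669 TPM in the A549 MOCK libraries (replicates 1 to 3) and 0.429, 0.0459 and 0.509 TPM in the A549 Rec libraries, from 0 to 14 reads.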
